A study of Phaffia rhodozyma with 6 samples.

Results

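Mitochondrial ribosomal proteins are the nucleus-encoded proteins that, together with ribosomal RNA of the mitochondrion, build the ribosome working inside that organelle. They were taken from the deposited table of *P. rhodozyma*, a carotenoid-making basidiomycete yeast, by its annotation and not by expression. A gene was a member when its description held both "mitochondri" and "ribosom" or when its GO terms named the large or the small subunit of the mitochondrial ribosome, and genes of the KEGG ribosome map without "mitochondri" in the description were left out. The rule found 39 of 6249 genes, of which 12 came in by the words alone, 7 by the GO terms alone and 20 by both. By description and GO term, 21 belonged to the large subunit and 14 to the small subunit. The remaining 4 carried a subunit GO term but were described as something else, namely a release factor, a peptidyl-tRNA hydrolase, an aconitate hydratase and an alpha/beta hydrolase. Of the 39, 3 also carried a GO term of the cytosolic ribosome (genes 537, 10075 and 10523). Of these, only gene 10075 also had a mitochondrial subunit term, and the other two rest on their description.

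Salicylic acid (SA), a plant hormone of the phenol family, had been added to the cultures of the S group, while the C group grew without it, and each group was read in 3 libraries. By the methods of the study, the yeast was strain AS2.1557 in YPD medium at 22 °C for 96 h, with 0.5 mg/L SA for the S group and a like amount of water for the C group. The time of RNA collection was not stated. RNA was selected by its poly(A) tail. The methods state that all experiments were repeated, but not whether the 3 libraries of a group came from separate cultures, so p-values measure the spread between libraries, which may be technical. Each value is an FPKM, a read density scaled to transcript length and to the mapped fragments of the library, which the authors estimated with StringTie. The number of reads behind a value is unknown. In such bulk values a change in the share of cells that use a gene and a change in its RNA per cell cannot be told apart. In the study's read statistics S3 had the most reads. Genes are given by the number in their identifier in the table, so that gene 7449 is unassigned_gene_7449. Carotenoid genes, which mark this yeast, were looked for by the words astaxanthin synthase, phytoene or geranylgeranyl in the description. All 11 genes found were above 0 in every library, with a lowest value of 2.78 FPKM. These words do not show that each of the 11 acts in the carotenoid pathway.

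The mitochondrial ribosome translates the few messages of the mitochondrial genome, which in fungi encode mainly core subunits of the respiratory chain and of ATP synthase. Its small subunit decodes the message and its large subunit joins the amino acids and guides the new chain through an exit tunnel towards the inner membrane. Nearly all of its proteins are made in the cytosol and imported, so that their messages are read in a poly(A) RNA library such as these.

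Messages of the mitochondrial ribosome were on the higher side in the S group, by modest amounts. Of the 39 genes, all of which passed the limit of a mean of 0.5 FPKM, 16 were higher at an adjusted p under 0.05 and 0 were lower (limma on log2(FPKM + 0.1), Benjamini-Hochberg over 6113 genes). Among all tested genes 19.9% were called higher and 3.03% lower. At an unadjusted p under 0.05, 20 were higher and 1 was lower, beside 32.4% and 5.27% of all genes. The log2 fold change was above 0 in 36 of the 39, beside 73.5% of all genes. The rises ran from 1.28-fold to 1.73-fold, 7 of them above 1.5-fold and 0 above 2-fold. The median log2 fold change was 0.34 over the 39 genes and 0.21 over all 6113. The libraries differed by a general shift as well, since the median gene stood at 29.16 to 31.97 FPKM in the S group and 23.6 to 26.4 in the C group. With every library centred on its median, which took 0.28 off each log2 fold change, 5 of the 39 were higher and 3 lower, beside 7.26% and 15.3% of all genes, and the median over the 39 was 0.07. After quantile normalization 4 were higher and 0 lower, beside 6.61% and 8.47% of all genes. The count also rested on single libraries: 6 were higher without S2, 5 without S3 and 8 without C2, beside 8.16%, 8.08% and 11.8% of all genes, and 1 was lower without C3, beside 4.79%. L32, L20, L11, RPS19 and mrp2 were called with any of the 6 libraries left out.

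**Figure D1:**
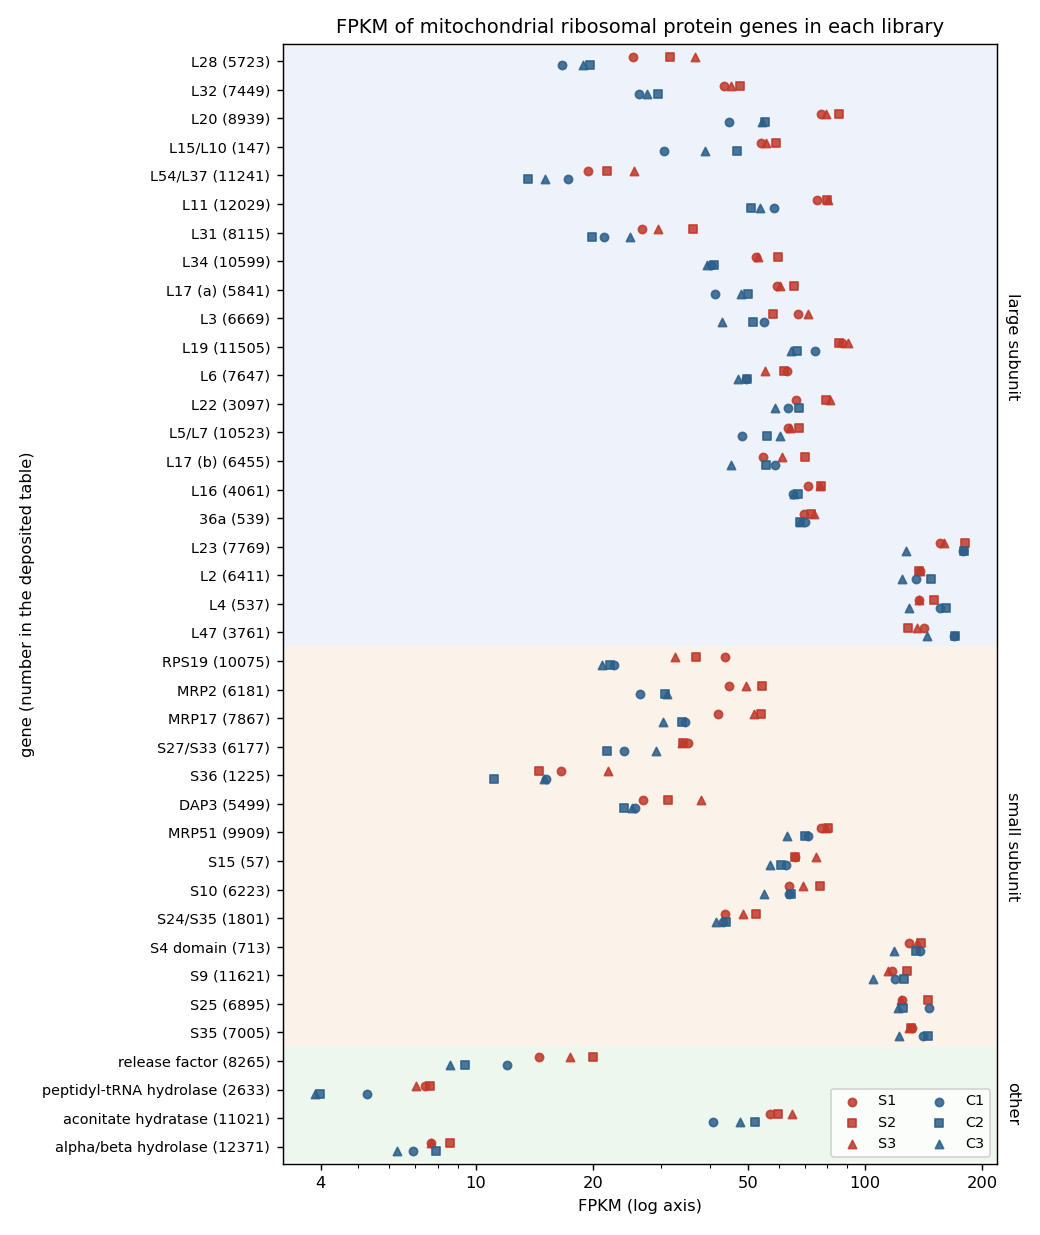
FPKM (horizontal log axis) of the 39 genes in each of the 6 libraries, with S1 to S3 in red and C1 to C3 in blue and the genes grouped as large subunit, small subunit and other. In 24 genes all S libraries lie above all C libraries, and in L47 all lie below, beside 36.1% and 7.48% of all tested genes.

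Of 21 genes of the large subunit 10 rose and 0 fell, beside 19.9% and 3.03% of all genes. Their median stood at 0.36 on the log2 scale, beside 0.21 over all genes. Mitochondrial ribosomal protein L32 (gene 7449, at 1004865 to 1005649 on contig LN483167.1) was the most stable of these calls. L32 is cut to its mature form by the m-AAA protease in *Saccharomyces cerevisiae* and mouse before it enters the ribosome. With the libraries in the order of their numbers, it stood at 43.5, 47.9 and 45.3 FPKM across S1 to S3 and at 26.2, 29.3 and 27.5 across C1 to C3. The groups were well apart, and the difference was 0.72 on the log2 scale (SE 0.12, adjusted p = 0.00365). It stayed called with centred libraries (adjusted p = 0.0186) and after quantile normalization (0.0233).

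L28 (gene 5723, at 73987 to 74955 on contig LN483166.1), a homologue of bacterial L28, had the largest rise among large subunit proteins. Its FPKM was 25.4, 31.5 and 36.5 across S1 to S3 against 16.6, 19.7 and 18.9 across C1 to C3. S3 was the highest library, and without it the adjusted p was 0.0510, beside 0.0110 with all libraries at a log2 fold change of 0.74 (SE 0.16). L28 stayed called with centred libraries (adjusted p = 0.0416), but not after quantile normalization (0.0600). L20 (gene 8939) rose by 0.65 on the log2 scale (SE 0.12, adjusted p = 0.00594), from 44.7, 55.4 and 54.3 FPKM across C1 to C3 to 77.3, 85.6 and 79.5 across S1 to S3. L11 (gene 12029), whose bacterial counterpart sits at the base of the stalk that receives the translation factors, was at 75.5, 79.9 and 80.3 FPKM across S1 to S3 and at 58.5, 51.0 and 53.8 across C1 to C3. Its log2 fold change was 0.53 (SE 0.10, adjusted p = 0.00818). In L20 and L11 every S library was above every C library, and the call held without any single library. It was lost with centred libraries (adjusted p = 0.0562 for L20 and 0.0849 for L11) and held after quantile normalization (0.0313 and 0.0432).

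The other 6 calls of the large subunit were less firm, since each was lost on leaving out at least 3 of the 6 libraries in turn. L15/L10 (gene 147) had 54.1, 59.1 and 55.8 FPKM across S1 to S3 and 30.5, 46.8 and 38.8 across C1 to C3, where C1 was low within its group. L54/L37 (gene 11241) had 19.4, 21.7 and 25.5 in the S group and 17.3, 13.6 and 15.1 in the C group. L31 (gene 8115) had 26.8, 36.2 and 29.5 in the S group and 21.4, 19.9 and 24.9 in the C group. Their log2 fold changes were 0.56 (SE 0.15), 0.53 (SE 0.16) and 0.48 (SE 0.15), and for L31 the lowest S library was close to the highest C library. L34 (gene 10599) had 52.6, 59.9 and 53.2 FPKM across S1 to S3 and 40.2, 40.9 and 39.2 across C1 to C3. One of the 2 genes described as L17 (gene 5841) had 59.4, 65.7 and 60.4 in the S group and 41.2, 50.1 and 48.2 in the C group. L19 (gene 11505), which in bacteria lies at the contact with the small subunit, had 87.4, 85.7 and 90.3 in the S group and 74.4, 67.0 and 64.4 in the C group. L34, L17 and L19 had log2 fold changes of 0.46 (SE 0.11), 0.41 (SE 0.12) and 0.36 (SE 0.10), and the adjusted p of these 6 genes ran from 0.0169 for L34 to 0.0475 for L31. None of the 6 was called with centred libraries.

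The other 11 genes of the large subunit did not pass the test, among them several whose bacterial counterparts lie at the exit tunnel or the catalytic centre. L2 (gene 6411), next to the catalytic centre in bacteria, had 139, 138 and 138 FPKM across S1 to S3 and 136, 148 and 124 across C1 to C3, so that the S group lay inside the range of the C group. L23 (gene 7769), at the mouth of the tunnel, was the most abundant member at 156, 181 and 160 in the S group and 179, 180 and 128 in the C group. L4 (gene 537) and L22 (gene 3097) have bacterial counterparts that reach into the tunnel. L4 had 137.4, 150.1 and 137.3 FPKM in the S group and 155.7, 161.6 and 129.5 in the C group, with overlapping groups, and the log2 fold changes of L4 and L22 were −0.07 (SE 0.11) and 0.26 (SE 0.12). L3 (gene 6669), near the catalytic centre, had 67.3, 58.0 and 71.5 FPKM across S1 to S3 and 55.0, 51.5 and 42.8 across C1 to C3, groups that did not overlap at an adjusted p of 0.0538. Its gene model has 22 exons and 4713 bases, the longest of the 39 and far longer than an L3 gene in other organisms, so the model may hold more than L3. L16 (gene 4061), L6 (gene 7647), L5/L7 (gene 10523), the other L17 (gene 6455) and protein 36a (gene 539) had log2 fold changes between 0.07 and 0.30, with adjusted p-values from 0.0683 for L6 to 0.626 for 36a.

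The mrp-l47 gene (gene 3761, at 462642 to 464018 on contig LN483144.1), a relative of bacterial L29 at the tunnel mouth, moved the other way. It had 142, 129 and 136 FPKM across S1 to S3 and 170, 171 and 145 across C1 to C3. All S libraries were below all C libraries, although S1 and C3 were close, and L47 was the 1 member of which this held (7.48% of all tested genes). The log2 fold change was −0.25 (SE 0.10, adjusted p = 0.0956), which did not pass. With centred libraries it was −0.53 (adjusted p = 0.0101) and after quantile normalization −0.33 (0.0515). Without C3 it was −0.33 (adjusted p = 0.0246).

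Of 14 genes of the small subunit 4 rose and 0 fell, beside 19.9% and 3.03% of all genes. Their median was 0.20 on the log2 scale, beside 0.21 over all genes. The median length was 1024 bases in the small and 756 bases in the large subunit. With the trend with length removed, 1 gene of each subunit was higher and 1 of the large subunit lower, beside 8.24% and 9.93% of all genes. The gene described as mrp2 (gene 6181, at 821261 to 822153 on contig LN483166.1), a relative of bacterial S14, had 44.6, 54.5 and 49.5 FPKM across S1 to S3 and 26.4, 30.7 and 31.04 across C1 to C3. The groups were far apart, at a log2 difference of 0.75 (SE 0.13, adjusted p = 0.00474), and the call held without any single library, with centred libraries (adjusted p = 0.0269) and after quantile normalization (0.0312). RPS19 (gene 10075), a protein of the head of the small subunit, had 43.8, 36.8 and 32.5 in the S group and 22.7, 22.2 and 21.2 in the C group. It rose by 0.76 on the log2 scale (SE 0.14, adjusted p = 0.00609), and at 282 bases it was the shortest called member. The call held without any single library and with centred libraries (adjusted p = 0.0414), but not after quantile normalization (0.0535).

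MRP17 (gene 7867), the S6 relative of *S. cerevisiae*, had 41.8, 54.2 and 51.8 FPKM across S1 to S3 and 34.4, 33.9 and 30.3 across C1 to C3. S27/S33 (gene 6177) had 35.1, 34.1 and 33.97 in the S group and 24.1, 21.7 and 29.0 in the C group. These groups did not overlap, and the log2 fold changes were 0.58 (SE 0.13, adjusted p = 0.0147) and 0.47 (SE 0.14, adjusted p = 0.0336). Neither was called with centred libraries, and MRP17 was not called without S2 or without S3, nor S27/S33 without C2 or without any of the S libraries.

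Among the 10 small subunit genes that did not pass was DAP3 (gene 5499), a GTP-binding protein of this ribosome that in animals is also linked to cell death. It had 26.9, 31.3 and 37.8 FPKM across S1 to S3 and 25.6, 24.1 and 25.3 across C1 to C3, so that S3 was high and S1 close to the C group (log2 fold change 0.34, SE 0.15, adjusted p = 0.116). S36 (gene 1225), whose *S. cerevisiae* relative is known as a subunit of the 2-oxoglutarate dehydrogenase complex, stood at 0.35 on the log2 scale (SE 0.19, adjusted p = 0.210). MRP51 (gene 9909), S15 (gene 57), S10 (gene 6223) and S24/S35 (gene 1801) were between 0.17 and 0.21 on the log2 scale. The abundant S9 (gene 11621), S25 (gene 6895), S35 (gene 7005) and the RNA-binding S4 domain gene (gene 713) were between −0.05 and 0.05. For S25 the values were 124, 146 and 124 FPKM across S1 to S3 and 146, 125 and 121 across C1 to C3, which overlapped in full. S35 had 132, 132 and 130 in the S group and 141, 145 and 122 in the C group, and it was lower only with centred libraries (adjusted p = 0.0292), as was L4 (0.0296).

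**Figure D2:**
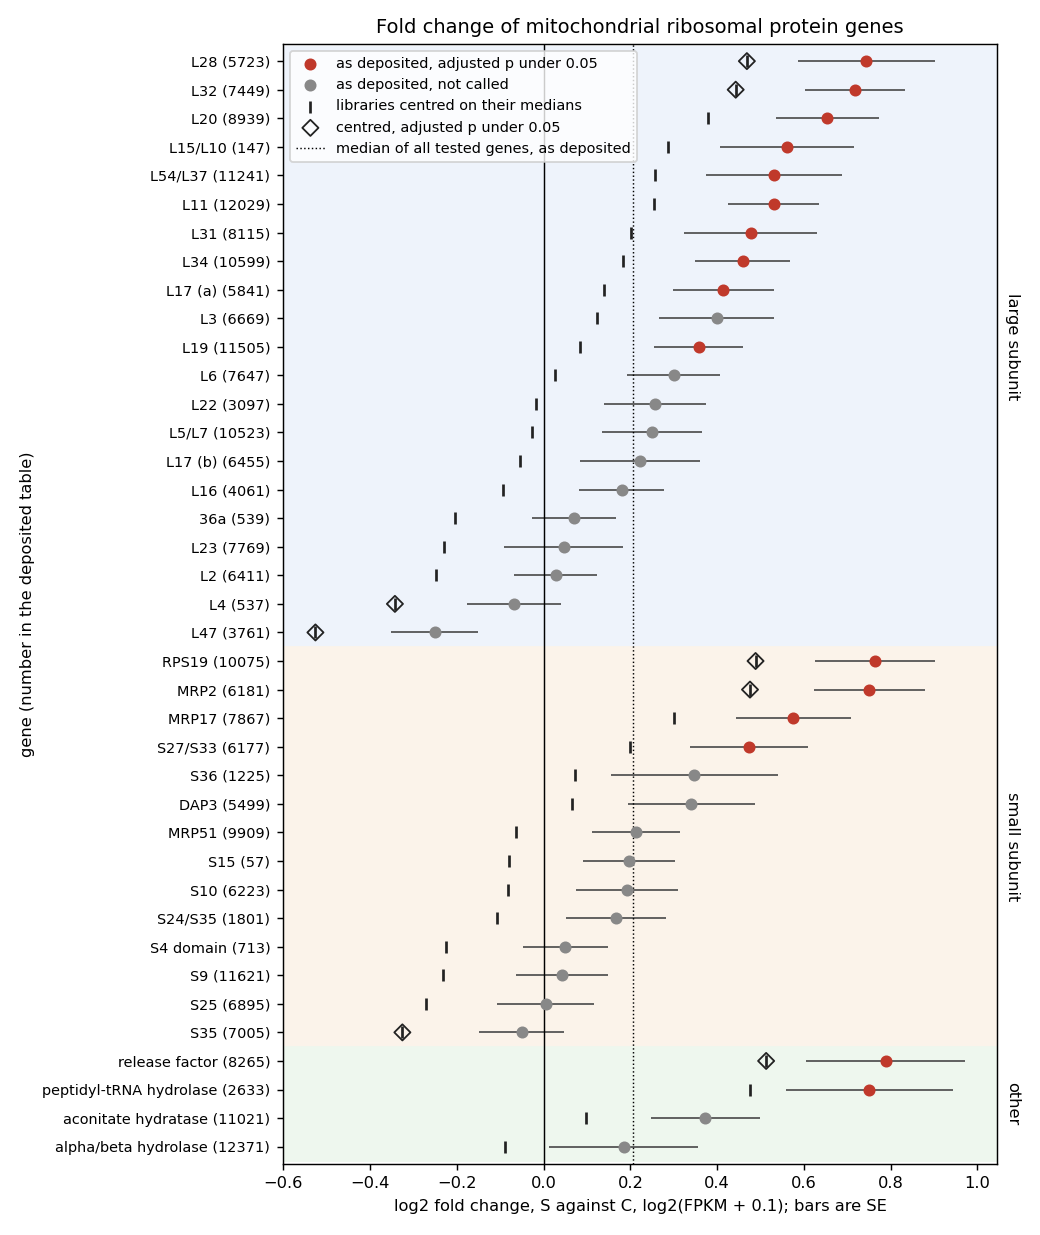
Log2 fold change of the S against the C group for each of the 39 genes on log2(FPKM + 0.1), with SE bars, in red where the adjusted p from limma was under 0.05, and as a black tick (a diamond where called) with libraries centred on their medians. Centring moves every gene left by 0.28, which leaves 5 genes called higher and turns L47, L4 and S35 into called falls. Among all tested genes 7.26% are then called higher and 15.3% lower.

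Among members described as other proteins, the release factor gene (gene 8265, at 2235981 to 2237240 on contig LN483167.1) carried GO terms for ending translation and for the rescue of stalled ribosomes and had the largest rise of the 39. It had 14.6, 19.99 and 17.4 FPKM across S1 to S3 and 12.1, 9.38 and 8.60 across C1 to C3, a rise of 0.79 on the log2 scale (SE 0.18, adjusted p = 0.0151). It stayed called with centred libraries (adjusted p = 0.0394), but not without C2, without S2 or without S3, where the adjusted p was up to 0.0757, nor after quantile normalization (0.0711). The peptidyl-tRNA hydrolase (gene 2633), a kind of enzyme that frees the peptide from tRNA, was the least abundant member. It had 7.42, 7.65 and 7.03 in the S group and 5.26, 3.99 and 3.88 in the C group, a rise of 0.75 on the log2 scale (SE 0.19, adjusted p = 0.0218). That call was lost without C2 or any of the S libraries (adjusted p up to 0.0901), and neither centring (0.0633) nor quantile normalization (0.132) kept it. The aconitate hydratase (gene 11021) had 56.9, 59.6 and 64.8 FPKM across S1 to S3 and 40.6, 52.1 and 47.7 across C1 to C3. Its groups did not overlap, and its log2 fold change of 0.37 (SE 0.13) had an adjusted p of 0.0554. In *Schizosaccharomyces pombe* an aconitase is made as a fusion with a mitochondrial ribosomal protein, and a ribosomal GO term stands on this gene beside those of the citric acid cycle and of lysine synthesis. The alpha/beta hydrolase (gene 12371), which has a GO term for protein methylesterase activity, had 7.69, 8.58 and 7.66 in the S group and 6.91, 7.91 and 6.27 in the C group, with overlapping groups (log2 fold change 0.19, SE 0.17, adjusted p = 0.463). Without these 4 genes and the 3 with a cytosolic GO term, a choice made after seeing the data, 13 of 32 genes rose and 0 fell, beside 19.9% and 3.03% of all genes. With centred libraries these 32 had 3 higher and 2 lower, beside 7.26% and 15.3%.

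The summed FPKM of the 39 genes was 2601, 2799 and 2712 across S1 to S3 and 2419, 2458 and 2201 across C1 to C3. All S libraries were above all C libraries, with S2 highest and C3 lowest. S2 was the highest library in 20 of the 39 genes and C3 the lowest in 23. The median member stood at 63.0, 65.7 and 64.1 FPKM in the S group and at 48.4, 51.5 and 47.7 in the C group. In 24 of the 39 genes every S library was above every C library, which held for 36.1% of all tested genes. Relative to the summed FPKM of 100 genes of the cytosolic ribosome, that of the mitochondrial ribosome was 1.58%, 1.66% and 1.75% across S1 to S3 and 1.42%, 1.44% and 1.20% across C1 to C3. The cytosolic sum, 155019 to 168613 in the S group and 170434 to 182796 in the C group, was lower in every S library than in any C library, which enters this ratio.

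The members called higher lay among the shorter ones. All 16 had a coding length of at most 816 bases, with a median of 491 bases (the table's lengths are multiples of 3 in 99.9% of tested genes and are called coding lengths). Of 21 members of at most 816 bases 16 were called higher, and of 18 longer members 0 were. This limit is the length of the longest called member, read after the values were seen, so the 0 follows from its choice. The same choice puts every called member on the short side, so the medians of short and long members given below depend on it too. Among the longer members, L3 (log2 fold change 0.40, adjusted p = 0.0538) and the aconitate hydratase (0.37, 0.0554) stood above the called L19 (0.36). Among all tested genes the same limit separated 30.8% called higher from 16.1%. The median log2 fold change was 0.53 for the short and 0.19 for the long members, and 0.32 and 0.17 for all short and all long genes. In deciles of coding length over all genes, the median log2 fold change went from 0.40 in the shortest, at up to 450 bases, to 0.06 in the longest, and the share called higher from 34.7% to 7.69%. The 5 short members that were not called were L47, S25, 36a, L6 and S36.

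Abundance ran along the same line. The 8 most abundant members, from 118 FPKM for S9 to 164 for L23 on average over the libraries, had log2 fold changes between −0.25 and 0.05, and 0 were called, while 16 of the 31 others were, none of them above 78.2 FPKM. In all genes of the decile that holds these 8, 17.5% were called higher, against 21.5% of less abundant genes. The deciles of mean FPKM had median log2 fold changes from 0.40 in the lowest to −0.07 in the highest over all genes. Over the 39 members, Spearman's rho of the log2 fold change was −0.74 with the mean FPKM and −0.59 with the coding length, and length and mean FPKM themselves had a rho of 0.48 (descriptive, as the genes share the same 6 libraries). Over all tested genes rho was −0.33 with the mean FPKM and −0.22 with the coding length. Below the abundant decile, the 12 long members had a median log2 fold change of 0.22 and the 19 short ones 0.53. Long and short were again split at the longest called member. With the trend with coding length taken out of each library, an alternative chosen after seeing the data, 3 members were higher (L32, mrp2 and the release factor) and 1 was lower (L47), beside 8.24% and 9.93% of all genes. With the trends with length and abundance taken out together, L32 was the only one higher (log2 fold change 0.36, adjusted p = 0.0472) and L47 the only one lower (−0.37, adjusted p = 0.0406), beside 5.91% and 4.96% of all genes. Those fits also take out the general shift between libraries. The part of length and abundance in the rises was not tested beyond this.

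**Figure D3:**
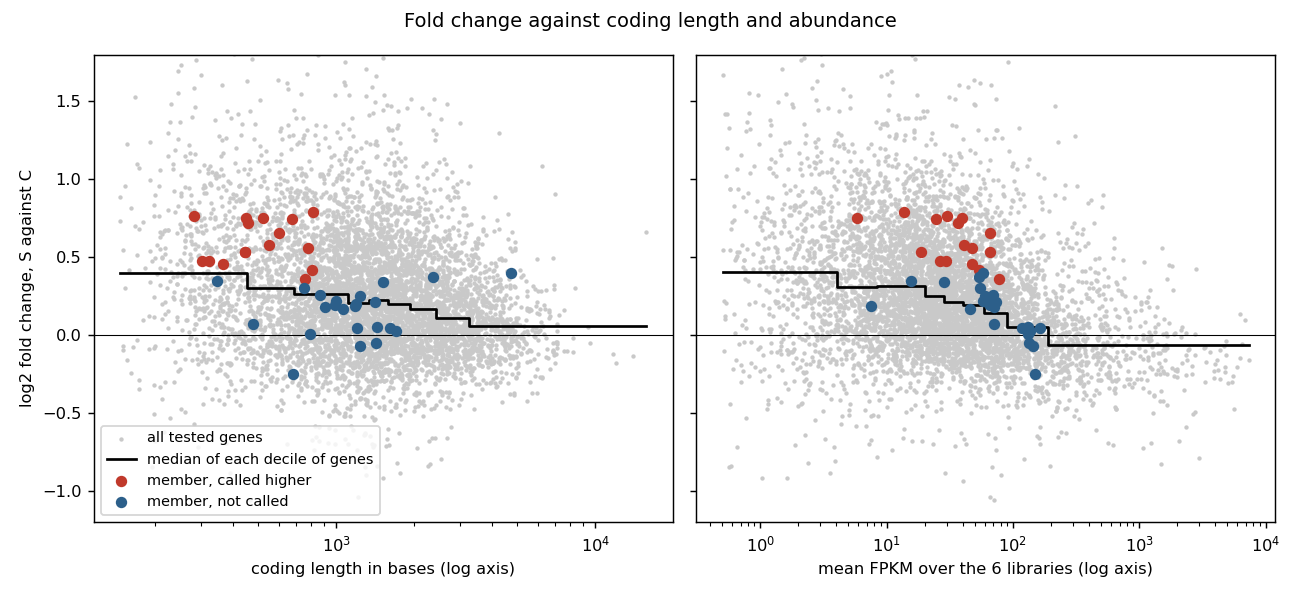
Log2 fold change of the S against the C group plotted against coding length (left) and mean FPKM over the 6 libraries (right), both on log axes, for all tested genes (grey; 45 genes beyond −1.2 to 1.8 are not drawn), the median of each decile of genes (black line) and the 39 members. The 16 members called higher (red) lie at 816 bases or less and at 78.2 FPKM or less, and the black lines fall with length and with abundance.

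Just outside the rule were 8 genes of the KEGG ribosome map that carry a mitochondrial ribosome GO term but no such word in the description. Of these, 5 rose and 0 fell, beside 19.9% and 3.03% of all genes. With centred libraries 0 were higher and 2 lower (genes 10477 and 10021), beside 7.26% and 15.3% of all genes. After quantile normalization 0 were called in either direction, beside 6.61% and 8.47%. A hypothetical protein (gene 5811) had 41.9, 45.6 and 46.6 FPKM across S1 to S3 and 23.5, 26.3 and 32.3 across C1 to C3 (log2 fold change 0.72, SE 0.14, adjusted p = 0.00804). Genes described as ribosomal protein S2 (gene 10479), L14 (gene 2063), S7 (gene 665) and MRPS18 (gene 8589) had log2 fold changes of 0.57, 0.56, 0.55 and 0.36. L27 (gene 1353), S5 (gene 10021) and a hypothetical protein (gene 10477) were not called, at 0.30, −0.02 and −0.0044. Their levels of 36.01 to 141 FPKM on average lay within the range of the 39 members, while the median gene of the cytosolic ribosome had 1266 FPKM. With these 8 genes added, 21 of 47 rose and 0 fell, beside 19.9% and 3.03% of all genes. With centred libraries the 47 had 5 higher and 5 lower, beside 7.26% and 15.3%. After quantile normalization they had 4 higher and 0 lower, beside 6.61% and 8.47%.

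Other genes of mitochondrial gene expression were read as lists, with no test between lists, and their counts stand beside 19.9% of all genes higher and 3.03% lower. With centred libraries those shares were 7.26% and 15.3%, and after quantile normalization 6.61% and 8.47%. For mitochondrial translation factors and tRNA charging, a list filled by words and GO terms that also took in a glycogenin, 3 of 14 rose and 0 fell, with a median log2 fold change of 0.30. With centred libraries 0 were higher and 2 lower, with a median of 0.03, and after quantile normalization 0 were called. Those that rose included a second release factor (gene 9873), with 13.7, 18.9 and 18.8 FPKM across S1 to S3 and 12.1, 10.9 and 11.1 across C1 to C3 (log2 fold change 0.57, SE 0.17, adjusted p = 0.0345). A glutamyl-tRNA amidotransferase (gene 9167), which in mitochondria completes the charging of glutamine tRNA, had 27.99, 30.4 and 37.5 in the S group and 19.4, 24.6 and 19.3 in the C group (0.60, SE 0.16, adjusted p = 0.0244). With centred libraries neither was called (adjusted p = 0.136 and 0.104). The call of gene 9873 was lost without S2, S3, C2 or C3 (adjusted p up to 0.147), and that of gene 9167 without S2, S3 or C3 (up to 0.104). Both release factors were higher in each S library than in any C library, which held for 36.1% of all tested genes. Of 5 genes of mitochondrial DNA and transcription 1 rose, a mitochondrial DNA helicase (gene 10783) at 0.78 (SE 0.16, adjusted p = 0.00875), and with centred libraries 1 was higher and 2 were lower.

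For the cytosolic ribosome, which makes the mitochondrial ribosomal proteins, 12 of 100 genes rose and 16 fell, beside 19.9% and 3.03% of all genes. This list was filled by the KEGG map and holds the 8 genes just outside the rule, which gave 5 of the 12 rises and 0 of the falls. The median of the list was −0.01 on the log2 scale. With centred libraries 2 were higher and 31 lower, with the length trend removed 1 and 41, and after quantile normalization 7 and 0. With the trends with length and abundance removed together, 6 were higher and 0 lower. The median after quantile normalization was 0.06 for the cytosolic and 0.07 for the mitochondrial ribosome, so that the distance between their medians was seen without that scaling and not with it. On the deposited scale, of its 86 genes of at most 816 bases 9 rose and 12 fell, with a median of −0.02. Levels in the whole list ran from 2.50 to 6475 FPKM, with a median of 1266, beside 57.6 for the 39 members. The 8 genes just outside the rule, at 36.01 to 141 FPKM, lay within the range of the members. So did gene 41, a 60S protein L23 of 525 bases that rose, at 45.4 FPKM. Oxidative phosphorylation, whose core subunits are the products of mitochondrial translation, had 9 of 81 genes higher and 7 lower, with a median of 0.09. Those counts stand beside 19.9% and 3.03% of all genes. With centred libraries 3 were higher and 21 lower (median −0.18), and with the length trend removed 4 and 23. After quantile normalization 4 were higher and 3 lower (median 0.0041), and with length and abundance trends removed together 4 and 2. Over all genes, 8.24% were higher and 9.93% lower with the length trend removed, and 5.91% and 4.96% with both trends removed. The nucleus-encoded NDUFS5 (gene 2897) of complex I rose by 0.95 on the log2 scale (SE 0.15, adjusted p = 0.00342), while another gene of complex I by its description, NADH-quinone oxidoreductase (gene 4197), fell by 0.34 on that scale (SE 0.08, adjusted p = 0.0127). The beta subunit of ATP synthase (gene 4375) fell by 0.33 (SE 0.08, adjusted p = 0.0177). Without S2 or S3 neither of these falls was called, and without C2 that of gene 4375 was not. The fall of gene 4375 was also not called after quantile normalization (adjusted p = 0.07) or with length and abundance trends removed (0.134). That of gene 4197 stayed called in these settings (adjusted p = 0.0337 and 0.0291). The list also took in the plasma membrane proton ATPase (gene 1333), which rose by 0.89 (SE 0.13, adjusted p = 0.00287) and is not mitochondrial. Of 16 genes of mitochondrial protein import 4 rose and 0 fell (median 0.14), a share near that of all genes, and with centred libraries 0 were higher and 2 lower. Of 25 mitochondrial carriers 6 rose and 0 fell (median 0.22), again near that share. With centred libraries 3 carriers were higher and 5 lower, and quantile normalization gave 2 and 4. Of 57 other genes described as mitochondrial 8 rose and 0 fell (median 0.18), which is 14% beside 19.9% of all genes. With centred libraries 1 of these was higher and 8 lower (median −0.10), and quantile normalization gave 2 and 4.

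**Figure D4:**
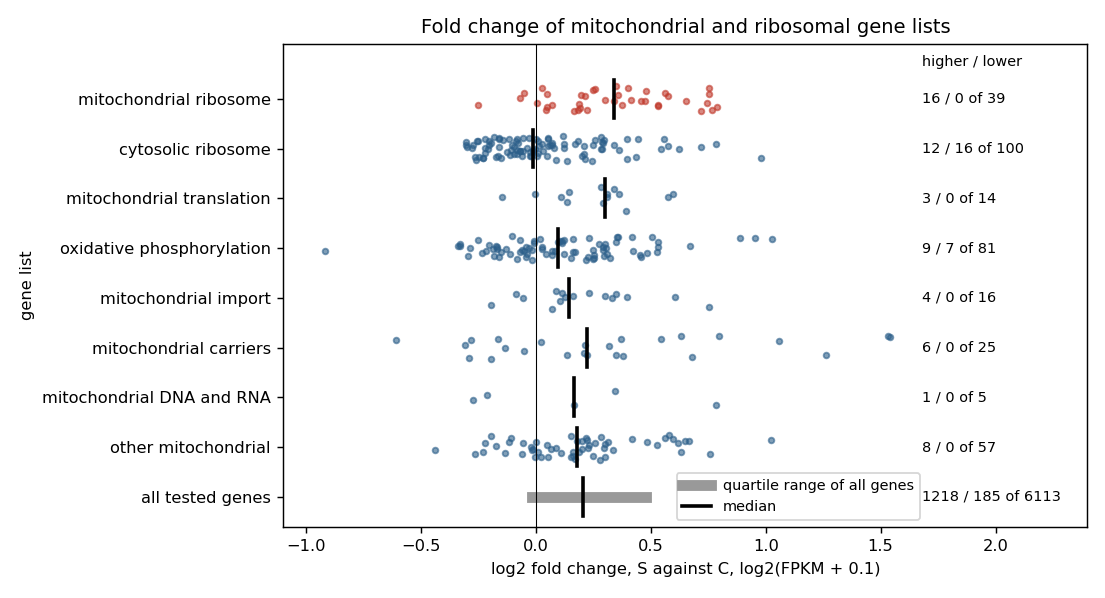
Log2 fold change of the S against the C group on log2(FPKM + 0.1) for the genes of each list (points, with the median as a black bar, and the range between the quartiles of all tested genes as a grey bar), with the counts called higher and lower at the right. The mitochondrial ribosome (red) has its median at 0.34 with 16 of 39 called higher, beside 19.9% of all tested genes. The cytosolic ribosome has its median at −0.01. After quantile normalization, not drawn here, the medians are 0.07 and 0.06.

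In the genome the members were scattered over 11 of the 70 contigs, and 1 pair lay side by side. L4 (gene 537, at 259845 to 261635 on contig LN483124.1, plus strand) and protein 36a (gene 539, at 262162 to 263122, minus strand) faced each other with 526 bases between them. Neither passed the test, at log2 fold changes of −0.07 and 0.07. All members had at least 2 exons, and 0 overlapped a neighbouring gene in the table. Some had a close neighbour that also rose: L32 (gene 7449) lay 259 bases from a coproporphyrinogen oxidase gene on the same strand (gene 7451, 0.54, adjusted p = 0.0164), and MRP17 (gene 7867) lay 297 bases from rrp36, a ribosomal RNA biogenesis gene on the other strand (gene 7869, 1.39, adjusted p = 0.00188). These neighbours were picked after their values were seen. Called members without a called neighbour included L28, whose neighbours stood at −0.01 and −0.11 (adjusted p = 0.934 and 0.482). The neighbours of mrp2 stood at 0.15 and 0.28 (adjusted p = 0.539 and 0.162). Among all tested genes 19.9% were called higher. Whether neighbours of members rose more often than that was not tested.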

How the data were processed

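Deposited values were FPKM, 1 per gene and library, for 6249 genes. The authors used fastp to clean reads, HISAT2 to map them and StringTie to obtain FPKM (no versions given). Sources name more than 1 assembly, so the build of the contigs, printed as deposited, is uncertain. Deposited columns of the authors' own comparison (fold change, p-value and q-value) were not used. Low FPKM did not fall on whole multiples of a read (at best 16.0% to 19.3% of 150 values per library within 0.05), so the number of reads behind each value stayed unknown.

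For the 6113 genes averaging 0.5 FPKM or more, log2(FPKM + 0.1) was compared with limma 3.58.1 in R 4.3.3 (mean-variance trend, no replicate block, two-sided, Benjamini-Hochberg over all tested genes, called under 0.05). This scale understates changes of low genes. The fit was tested on simulated data with independent noise and planted changes. Those data had no shift between libraries and no trend with length or abundance, so they cannot judge calls that depend on these. Members and lists were chosen with earlier results of these data known. Values per library are given for called members, the most and least abundant, the 2 with the lowest log2 fold change, members described as other proteins, and some chosen after seeing values (L2, L3, S25, S35, DAP3 and gene 5811). From other lists up to 2 genes per direction with the smallest adjusted p were named. Trends with length and abundance were removed by loess (span 0.5) on deviations from gene means. Alternatives are in the closing section. Plots used matplotlib 3.10.9 under Python 3.11.15.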

Additional observations from a re-analysis of the deposited data

How the results depend on the processing

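Centring, quantile normalization and the 2 trend corrections chosen after seeing the data lowered the counts. With centred libraries 5 members were higher, 3 lower and the median log2 fold change was 0.07 (0.06524). After quantile normalization 4 were higher and the median was 0.07 (0.07155). With the length trend removed 3 were higher, 1 lower and the median was 0.05 (0.05055). With length and abundance trends removed 1 was higher, 1 lower and the median was 0.07 (0.07465). Among all genes the shares higher and lower were 7.26% and 15.3% with centring and 6.61% and 8.47% after quantile normalization. They were 8.24% and 9.93% with the length trend removed, and 5.91% and 4.96% with both trends removed. Leaving out each library in turn gave 5 to 15 members higher, 0 to 1 lower and medians from 0.26 to 0.36. The cause was not tested, but centring by construction takes out the shift common to all genes. Other pseudocounts, limits on low values and robust moderation gave 16 or 17 higher and 0 lower, and no trend gave 12. Only L32 was called in all 17 alternatives.

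With the replicate number as a block 12 were higher and 0 lower, beside 17.2% and 2.47% of all genes, and L54/L37, L31, L19 and S27/S33 lost their calls. Same-numbered libraries had correlations of −0.02, 0.16 and −0.0034, so the numbers were not shown to pair the libraries.

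Log2 fold changes turned negative in members not called. With centred libraries they were −0.25 for L2, −0.27 for S25, −0.23 for the S4 domain gene (−0.2255), S9 (−0.2329) and L23 (−0.2287), −0.20 for 36a, −0.01819 for L22, −0.02573 for L5/L7, −0.0536 for L17 (gene 6455), −0.06285 for MRP51, −0.11 for S24/S35, −0.08 for S15 (−0.07874) and S10 (−0.08293), −0.09 for L16 (−0.09471) and −0.09 for the alpha/beta hydrolase (−0.0902). After quantile normalization they were −0.07 for L2 (−0.07411), S24/S35 (−0.06993) and the S4 domain gene (−0.06663), −0.10 for S25 (−0.09956), S9 (−0.09685) and 36a (−0.1042), −0.0039 for S10 and −0.17 for the hydrolase. With the length trend removed they were −0.16 for L2 (−0.1591) and L23 (−0.1632), −0.24 for S25 (−0.2398) and 36a (−0.2385), −0.15 for the S4 domain gene (−0.1486) and S9 (−0.1477), −0.0086 for S36, −9.46e-06 for L17 (gene 6455), −0.05 for S24/S35 (−0.0493) and L16 (−0.04985), −0.01414 for S15, −0.03 for S10 (−0.03026) and −0.03 for the hydrolase (−0.02606). With length and abundance trends removed they were −0.10 for S25, −0.0037 for S9, −0.20 for 36a, −0.12 for S36, −0.04398 for S24/S35 and −0.17 for the hydrolase. On leaving out single libraries L2 ran from −0.03482 to 0.08944, S25 from −0.07243 to 0.08553, the S4 domain gene from −0.01893 to 0.09105, S9 from −0.03305 to 0.09944 and L23 from −0.12 to 0.13.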
